A study of Mus musculus with 12 samples.

Results

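Phosphoribosyl pyrophosphate (PRPP) synthetase is represented here by 4 genes: the catalytic isoforms Prps1 and Prps2, and Prpsap1 and Prpsap2, which encode the PRPP synthetase-associated proteins. They were taken by symbol from a table of 24982 genes, and all 4 passed the filter on low values in every comparison. Polyadenylated RNA came from splenic B lymphocytes of mice aged 6 weeks. There were 3 genotypes with 4 libraries each: WT mice (C57BL/J6), Eμ-Myc mice, and mice with both the Eμ-Myc transgene and a PRPS2 KO, called the KO group below. Eμ-Myc carries Myc under the immunoglobulin heavy-chain enhancer, so the transgene is driven in the B lineage. All mice of the KO group carry it too, and no group has the PRPS2 KO without the transgene. How the PRPS2 KO allele was made, in which cells it acts, and the sex of the mice are not given in the sources used here. The first comparison addressed the genes that the transgene deregulates, and the second addressed whether loss of PRPS2 alters that programme. The libraries are labelled as biological replicates.

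PRPP synthetase transfers a pyrophosphate group from ATP to ribose 5-phosphate. Its product, PRPP, is the ribose donor for new purine, pyrimidine and nicotinamide nucleotides and for the salvage of free bases. PRPS1 is the isoform more strongly inhibited by ADP and GDP, and PRPS2 is less sensitive to this feedback. The associated proteins resemble the catalytic isoforms in sequence, are held to lack activity of their own, and are found with them in large complexes, where they are thought to restrain the enzyme. In Myc-driven B cells PRPS2 is also known for control at the level of protein synthesis, which RNA coverage does not measure.

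In the GENCODE annotation of GRCm38, the assembly that mm10 stands for, both catalytic genes lie on the X chromosome. Prps1 spans chrX:140456613-140476140 on the forward strand and Prps2 spans chrX:167346322-167382749 on the reverse strand. Each has 7 exons and a coding length of 954 bases, and their coding sequences are 80.0% identical. Prpsap1 spans chr11:116470845-116494202 with 10 exons and a coding length of 1155 bases. Prpsap2 spans chr11:61729650-61762088 with 12 exons and a coding length of 1107 bases. Both are on the reverse strand, and their coding sequences are 72.3% identical. No stretch of 50 bases is shared between the transcripts of any pair of the 4 genes, and the longest run shared by Prps1 and Prps2 is 20 bases.

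The 250 bases before the RefSeq start of each gene (GRCm38.p6) are printed because 3 of the 4 genes were called higher with the Myc transgene. That comparison, Eμ-Myc against WT, called 29.0% of 12704 genes higher. Capitals mark every match on either strand to 4 short motifs. The E-box has the letters CACGTG and reads the same on both strands. An E-box variant has the letters CACGCG, which on the opposite strand become CGCGTG. The CCAAT box was searched as CCAAT, which on the opposite strand becomes ATTGG, and the GC box as CCGCCC, which there becomes GGGCGG. The windows are chrX:140456353-140456602 (forward strand) for Prps1, chrX:167382750-167382999 (reverse) for Prps2, chr11:116490347-116490596 (reverse) for Prpsap1 and chr11:61762089-61762338 (reverse) for Prpsap2. Each is written in the direction of its gene.
Prps1: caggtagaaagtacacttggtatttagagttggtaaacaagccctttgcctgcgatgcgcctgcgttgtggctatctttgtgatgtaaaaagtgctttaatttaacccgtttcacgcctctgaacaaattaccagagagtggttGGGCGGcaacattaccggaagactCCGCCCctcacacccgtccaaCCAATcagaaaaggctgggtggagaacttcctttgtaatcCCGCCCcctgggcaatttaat
Prps2: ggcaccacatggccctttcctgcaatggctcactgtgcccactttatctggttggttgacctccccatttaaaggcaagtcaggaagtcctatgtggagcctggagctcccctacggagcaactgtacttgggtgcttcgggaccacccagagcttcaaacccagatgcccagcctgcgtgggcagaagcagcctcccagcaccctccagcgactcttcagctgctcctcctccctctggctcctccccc
Prpsap1: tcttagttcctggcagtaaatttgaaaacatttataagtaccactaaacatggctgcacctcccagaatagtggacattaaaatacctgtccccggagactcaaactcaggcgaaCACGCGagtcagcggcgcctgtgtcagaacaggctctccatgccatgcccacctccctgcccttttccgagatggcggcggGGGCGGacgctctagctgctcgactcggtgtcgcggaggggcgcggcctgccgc
Prpsap2: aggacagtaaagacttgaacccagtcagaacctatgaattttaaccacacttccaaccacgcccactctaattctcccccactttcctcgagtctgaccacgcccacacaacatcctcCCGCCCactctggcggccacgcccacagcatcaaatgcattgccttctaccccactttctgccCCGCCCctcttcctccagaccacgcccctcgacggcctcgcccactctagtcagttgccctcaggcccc

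The Prps1 window held 1 CCAAT box and 3 GC boxes, and the Prps2 window held none of these letters. Prpsap1 had 1 match to CACGCG and 1 GC box, and Prpsap2 had 2 GC boxes. The letters CACGTG, the best known binding site of Myc, were in none of the 4 windows. Bases after the start and farther upstream were not searched, so such letters there are not excluded. Among 27025 RefSeq promoter windows of the same length, 6.05% held CACGTG, 7.74% CACGCG, 34.5% the CCAAT box and 32.9% the GC box. The window of Prps1 was 48.4% G and C, below the median of 52.0% over all windows, and those of the other genes were 57.6% to 60.0%. The RefSeq start of Prpsap1 lies inside the longer GENCODE span, so its window is not the region before the outermost start. A match describes letters only, and no binding was measured.

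The values are coverage per gene, brought to a common scale across libraries. They are read here as mean depth per base, but how the coverage was computed, and over which length, is not given in the sources used here. Levels, orders, shares and ratios between genes rest on that reading, while changes of 1 gene between libraries do not. Read counts are not known, so no counting error can be given, and values carry the SD between libraries. The 5 B-cell markers Cd79a, Cd79b, Ms4a1, Cd22 and Pax5 were above 1 in all 12 libraries, with summed coverage of 4850.0 to 9536. The KO libraries differed among themselves. Libraries 1 and 2 had summed T-cell markers (Cd3d, Cd3e, Cd3g, Cd247, Cd4, Cd8a, Cd8b1, Cd28) of 467 and 485. Libraries 3 and 4 had 12.1 and 11.3, with 3 of the 8 genes at 1 or above. Across all libraries of WT and Eμ-Myc this sum ran from 382 to 2115 and from 81.3 to 116. The 8 myeloid markers summed to 14760 and 10720 in KO libraries 1 and 2 and to 2999 and 1251 in libraries 3 and 4. The plasma cell markers (Sdc1, Jchain, Prdm1, Xbp1) summed to 370 and 435, and to 107 in both of the latter. Sdc1 went the other way, at 6.64 and 7.38 in KO libraries 1 and 2 and 12.46 and 10.2 in libraries 3 and 4. The 6 erythroid markers ranged from 66.4 to 721 in all. No marker of these lists was at 0 in all libraries of a group. WT libraries 1 and 4 stood apart from 2 and 3 as well, with B-cell sums of 5180.0 and 4850.0 against 9536 and 8291 and myeloid sums of 25480.0 and 14510.0 against 7955 and 8061. The fits of the 4 genes and of Prps1l3, and the relations to Myc, are therefore also given without KO libraries 1 and 2 and without KO libraries 3 and 4. Ratios and the genes of the PRPP list were not refitted in this way. The part of these cells in the results was not tested, and in bulk RNA fewer cells of a type and less RNA per cell cannot be told apart. Xist was at most 0.1 in any library. The Y-linked genes Ddx3y, Eif2s3y, Kdm5d and Uty were at least 38.8, 197.5, 11.1 and 22.1 in all 12, before scaling. This is the pattern of male cells in every library, although the sources give no sex.

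Prps2 was checked first, since it is the targeted gene. Its scaled coverage was 102, 139.8, 127 and 141 in WT libraries 1 to 4, and 240.3, 197, 250.2 and 293 in Eμ-Myc. The KO libraries held 17.9, 16.1, 17.3 and 16.4. The lowest Eμ-Myc library exceeded the highest WT library, and all KO libraries lay far below both groups. The group means were 128 ± 18.2, 245 ± 39.5 and 16.9 ± 0.798 (mean ± SD of 4 libraries each). The KO mean was 6.90% of the Eμ-Myc mean and 13.3% of the WT mean. The remaining coverage was above the group mean of 51.7% of the genes detected in the KO group. Prps2 differed little between the KO libraries, while Prps1 ranged over 3-fold among the same libraries. Which exons the remaining coverage lies on is not known from values per gene.

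**Figure D1:**
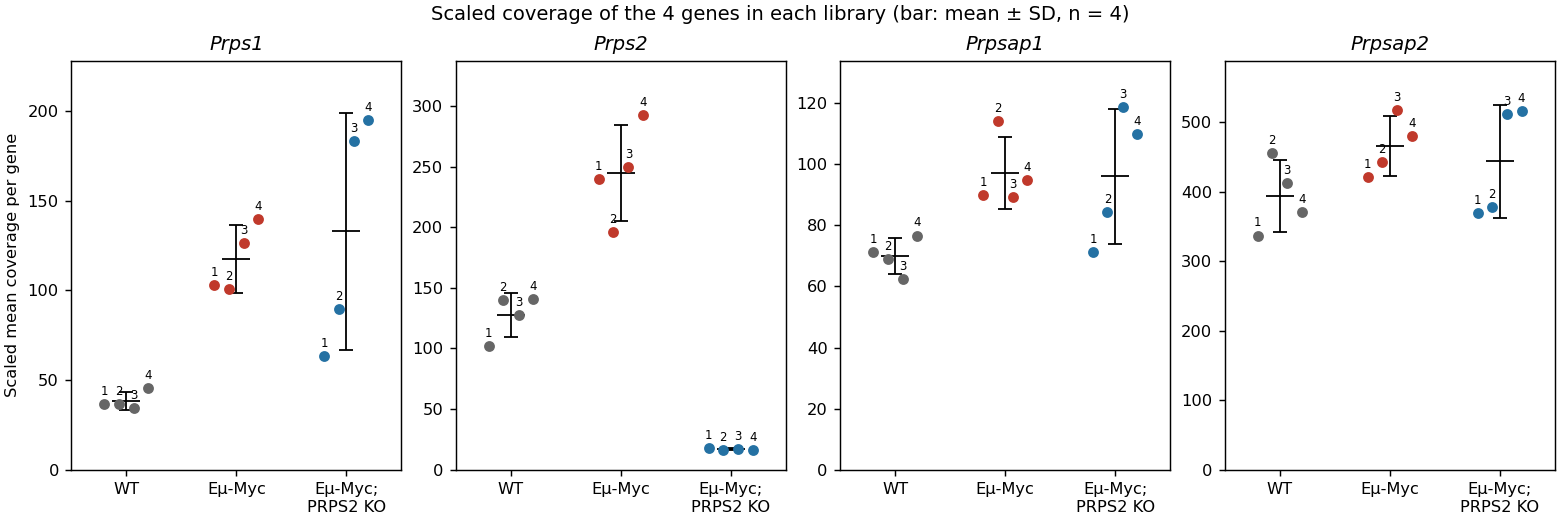
Scaled coverage per gene, read as mean depth per base (vertical axes, each from 0), of Prps1, Prps2, Prpsap1 and Prpsap2 in the 4 libraries of each genotype. Points carry the replicate number, and bars show the mean ± SD. Prps1 and Prps2 are higher in all Eμ-Myc libraries than in all WT libraries, Prps2 is between 16.1 and 17.9 in the KO group, and KO libraries 1 and 2 lie below 3 and 4 for Prps1, Prpsap1 and Prpsap2.

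Both catalytic isoforms and Prpsap1 rose in Eμ-Myc against WT, and Prps1 had the largest fold change. Of the 4 genes 3 were called higher at an adjusted p under 0.05 in limma, in a comparison where 29.0% of 12704 genes were called higher, 26.6% lower and 55.6% in either direction. The same 3 genes had groups that did not overlap, as did 27.0% of all genes in that direction. Prps1 rose by 1.60 log2 units (SE 0.14, 95% interval 1.29 to 1.92, limma adjusted p 2.302e-05), or 3.03-fold. In Prps2 the change was 0.94 (SE 0.15, 95% interval 0.60 to 1.27, limma adjusted p 6.52e-04), or 1.92-fold. The difference between the isoforms was tested as their ratio within libraries, given further on. In this comparison 5.13% of all tested genes had a change at least as high as that of Prps1, against 13.2% for Prps2.

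By the coverage assigned to it, Prps1 was the least abundant of the 4 genes in WT. It had the largest fold change, while the step in scaled coverage was larger for Prps2. A close paralog outside the 4 genes, Prps1l3, averaged 40.6 in WT, and part of the coverage may be assigned to either gene, as described further on. The scaled coverage of Prps1 was 36.5, 36.6, 34.2 and 45.7 in WT libraries 1 to 4, and 103, 101, 126 and 140.0 in Eμ-Myc. The KO libraries held 63.5, 89.7, 184 and 195. The WT libraries lay below all others. Knockout libraries 1 and 2 fell below the Eμ-Myc range and libraries 3 and 4 above it. The means were 38.3 ± 5.10, 118 ± 18.9 and 133 ± 66.1 (mean ± SD of 4 libraries each). By its mean, Prps1 stood above 65.5% of the detected genes in WT and above 83.9% in Eμ-Myc.

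Prpsap1 had a scaled coverage of 71.3, 69.0, 62.6 and 76.7 in WT, and of 90.0, 114, 89.3 and 94.8 in Eμ-Myc. The KO libraries held 71.3, 84.4, 119 and 110.0. All Eμ-Myc values exceeded all WT values, whereas the KO group reached down into the WT range. Prpsap1 rose by a log2 fold change of 0.47 in Eμ-Myc against WT (SE 0.11, 95% interval 0.22 to 0.72, limma adjusted p 0.00619), or 1.38-fold. This lay within the upper 27.3% of all tested genes.

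Prpsap2 was the most abundant of the 4 genes in every library, and its values in WT and Eμ-Myc overlapped. Its scaled coverage was 337, 456, 412 and 371 in WT, and 422, 443, 518 and 481 in Eμ-Myc. The KO libraries held 369.6, 378, 513 and 516. The log2 fold change in Eμ-Myc against WT was 0.25 (SE 0.12, 95% interval -0.02 to 0.51, limma adjusted p 0.104), which did not pass. With library quality weights it passed at 0.26 (limma adjusted p 0.0248), in a fit that called 9031 of 12704 genes. The group means were 394 ± 51.3, 466 ± 42.6 and 444 ± 81.5 (mean ± SD of 4 libraries each), above 96% of the detected genes in each genotype.

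In the comparison of the KO group with Eμ-Myc, Prps2 was the 1 gene of the whole table with an adjusted p under 0.05 in limma. That call is 0.00798% of 12531 tested genes, and 119 genes (0.950%) had an unadjusted p under 0.05 in limma. This share is below the fraction of 0.05 that the threshold gives on average when no gene differs. The lack of other calls therefore does not show that no other gene changed. The groups did not overlap for Prps2, as for 0.734% of genes in that direction. Prps2 fell by 3.80 on the log2 scale (SE 0.14, limma adjusted p 2.176e-05). For Prps1 the log2 fold change was 0.04 (SE 0.36, limma adjusted p 1.00), with a 95% interval of -0.80 to 0.87. A rise or a fall of Prps1 within that interval is not excluded. Prpsap1 was at -0.04 (95% interval -0.46 to 0.39) and Prpsap2 at -0.08 (95% interval -0.45 to 0.28), neither passing in limma. With library quality weights, Prps1 passed at 0.59 (limma adjusted p 0.00341) and Prpsap1 at 0.29 (0.00751), in a fit that called 7565 of 12531 genes.

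The value of Prps1 in that comparison depended on which KO libraries entered. Without KO libraries 1 and 2 it was 0.70 (limma adjusted p 0.0160), in a fit that called 3540 of 12210 genes. Without libraries 3 and 4 it was -0.62 (limma adjusted p 0.0685), in a fit that called 1134 of 12389 genes. Prpsap1 had values in the same order, 0.24 (limma adjusted p 0.191) and -0.31 (0.171), and so had Prpsap2, 0.15 (0.375) and -0.31 (0.134). Prps2 stayed between -3.91 and -3.69 under all 19 alternatives. The sums of the T-cell, myeloid and plasma cell markers given above split the KO libraries in the same way as Prps1. These sums were higher in libraries 1 and 2, although Sdc1 of the plasma cell list was lower there.

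Against WT, the KO group was higher in Prps1 and lower in Prps2. The comparison called 29.3% of 12665 genes, 15.8% higher and 13.4% lower. This count of 3705 genes became 15 to 6632 when single libraries were left out. For 19.0% of genes all KO libraries were above all WT libraries, as for Prps1, and for 18.7% they were below, as for Prps2. The comparison shares its libraries with both comparisons above. Prps1 was higher by a log2 fold change of 1.64 (SE 0.36, 95% interval 0.82 to 2.46, limma adjusted p 0.0234). Its call was lost without WT library 1, 2 or 3 (limma adjusted p 0.0617, 0.0743 and 0.0711) and without KO library 3 or 4 (0.0622 and 0.0647), with log2 fold changes of 1.40 to 1.62. It was 2.30 without KO libraries 1 and 2 (limma adjusted p 2.318e-05) and 0.98 without libraries 3 and 4 (0.0224). Those fits called 8641 of 12311 and 1385 of 12438 genes. Prps2 was lower, with a log2 fold change of -2.87 (SE 0.14, 95% interval -3.18 to -2.56, limma adjusted p 2.044e-04).

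Prpsap1 was at 0.43 in the KO group against WT (SE 0.18, 95% interval 0.02 to 0.84, limma adjusted p 0.0894) and did not pass. It passed without KO library 1, at 0.56 (limma adjusted p 0.0209), in a fit that called 6632 of 12479 genes. With all 12 libraries in one fit it also passed (limma adjusted p 0.0471, 5958 of 12665 genes called). Without KO libraries 1 and 2 it passed at 0.71 (limma adjusted p 0.0011, 8641 of 12311 genes called). With library quality weights it passed at 0.72 (limma adjusted p 2.178e-05, 10520 of 12665 genes called). Prpsap2 was at 0.16 (SE 0.17, limma adjusted p 0.438). It passed without KO libraries 1 and 2, at 0.39 (limma adjusted p 0.0312), and with library quality weights, at 0.30 (0.00734), and without libraries 3 and 4 it was -0.07 (0.792).

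The balance between the genes was then read within each library, where scaling plays no part. In WT the order of levels was Prpsap2, Prps2, Prpsap1 and Prps1 in all 4 libraries. In Eμ-Myc, Prpsap2 and Prps2 kept the first places, while Prps1 exceeded Prpsap1 in 3 of 4 libraries, so these neighbours did not differ beyond their spread. In the KO group Prpsap2 remained first and Prps2 came last, and Prps1 exceeded Prpsap1 in 3 of 4 libraries.

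The ratio of Prps1 to Prps2 was 0.359, 0.262, 0.269 and 0.324 in WT libraries 1 to 4, and 0.429, 0.512, 0.504 and 0.478 in Eμ-Myc. All Eμ-Myc libraries lay above all WT libraries. The geometric means of 0.301 and 0.480 differed 1.59-fold (exact two-sided permutation p 0.0286, adjusted p 0.0572 over 12 ratio tests, n = 4 each). This is the smallest p that 70 arrangements can give, and no ratio passed after adjustment. KO libraries 1 to 4 had ratios of 3.56, 5.55, 10.6 and 11.9, a check of the PRPS2 KO that was not tested.

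Expressed as a share, Prps1 made up 23.2% ± 2.71 of the summed coverage of Prps1 and Prps2 for WT, 32.4% ± 1.73 for Eμ-Myc and 86.6% ± 6.62 in the KO group (mean ± SD of 4 libraries each). The sum of both isoforms was 166 ± 21.0 in WT and 362 ± 57.1 in Eμ-Myc. In the KO group it was 81.3, 106, 201 and 211 in libraries 1 to 4, or 150.0 ± 65.9. All KO sums lay below the lowest Eμ-Myc sum of 297. They lay on both sides of the WT range of 138 to 187. The share and the sum in the KO group contain the loss of the targeted Prps2 itself, and neither was tested.

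**Figure D2:**
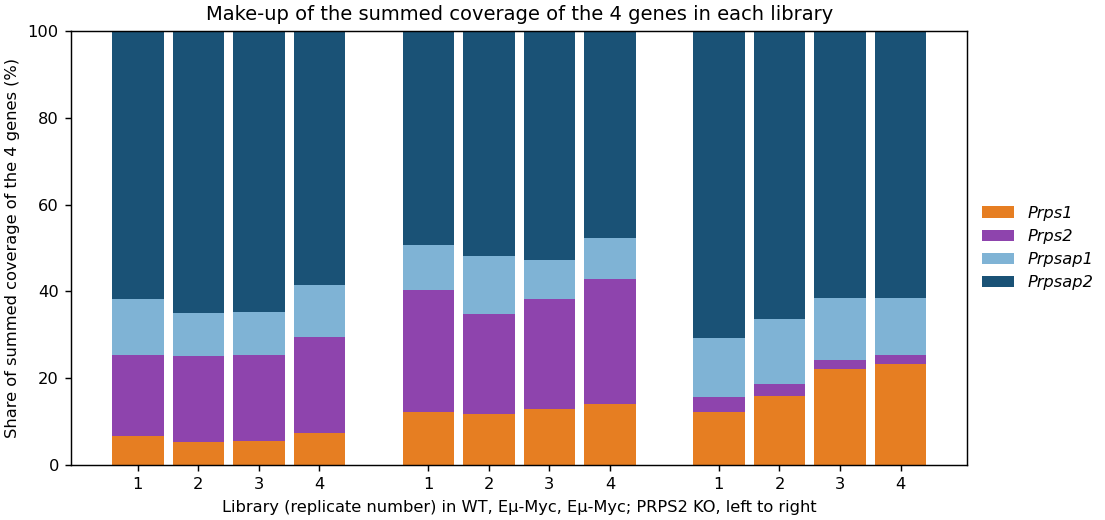
Share of the summed coverage of the 4 genes held by each (vertical axis, percent) in every library, for WT, Eμ-Myc and the KO group from left to right. Prpsap2 holds 47.7% or more of each library, and Prps2 goes from 20.2% on average in WT to 26.4% in Eμ-Myc and 2.57% in the KO group.

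Relative to Prpsap2, both catalytic isoforms lay higher in all Eμ-Myc libraries than in all WT libraries. The ratio of Prps1 to Prpsap2 was 0.108, 0.0804, 0.0829 and 0.123 in WT, and 0.245, 0.227, 0.243 and 0.291 in Eμ-Myc. The groups did not overlap, and the ratio was 2.58-fold higher (exact permutation p 0.0286, adjusted p 0.0572, n = 4 each). It was 0.172, 0.237, 0.358 and 0.377 in the KO group, also above every WT library (2.80-fold, exact permutation p 0.0286, adjusted p 0.0572, n = 4 each). Without WT library 1, 2 or 3 the exact permutation p of this last ratio was 0.0571. The sum of Prpsap1 and Prpsap2 was 2.82 ± 0.280 times the sum of Prps1 and Prps2 in WT and 1.58 ± 0.231 times in Eμ-Myc. In the KO group it was 3.97 ± 1.15 times (mean ± SD of 4 libraries each). That value contains the loss of the targeted Prps2 in the sum below, and these multiples were not tested.

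Of the other ratios, Prps1 to Prpsap1 was 2.21-fold higher in Eμ-Myc than in WT, with geometric means of 0.546 and 1.20 and no overlap (exact permutation p 0.0286, adjusted p 0.0572, n = 4 each). Prps2 to Prpsap2 was 1.62-fold higher, at 0.323 and 0.522, again without overlap and with the same p values. Prps2 to Prpsap1 was 1.81 in WT and 2.51 in Eμ-Myc, and the groups overlapped through Eμ-Myc library 2 (exact permutation p 0.114, adjusted p 0.195, n = 4 each). Without that library its exact permutation p was 0.0286.

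The ratio between the associated proteins, Prpsap1 to Prpsap2, had geometric means of 0.178 (WT), 0.208 (Eμ-Myc) and 0.215 (KO group), with overlapping libraries in each comparison. Its exact permutation p was 0.229 for Eμ-Myc against WT, 0.743 for the KO group against Eμ-Myc and 0.143 for the KO group against WT (n = 4 each). Between the KO group and Eμ-Myc, the ratios of Prps1 to Prpsap1 and to Prpsap2 differed 1.05-fold and 1.09-fold (exact permutation p 0.771 and 0.743, n = 4 each), below the spread between libraries. The ratio of Prps1 to Prpsap2 in the KO group varied among libraries with an SD of 0.54 on the log2 scale, against 0.15 in Eμ-Myc.

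**Figure D3:**
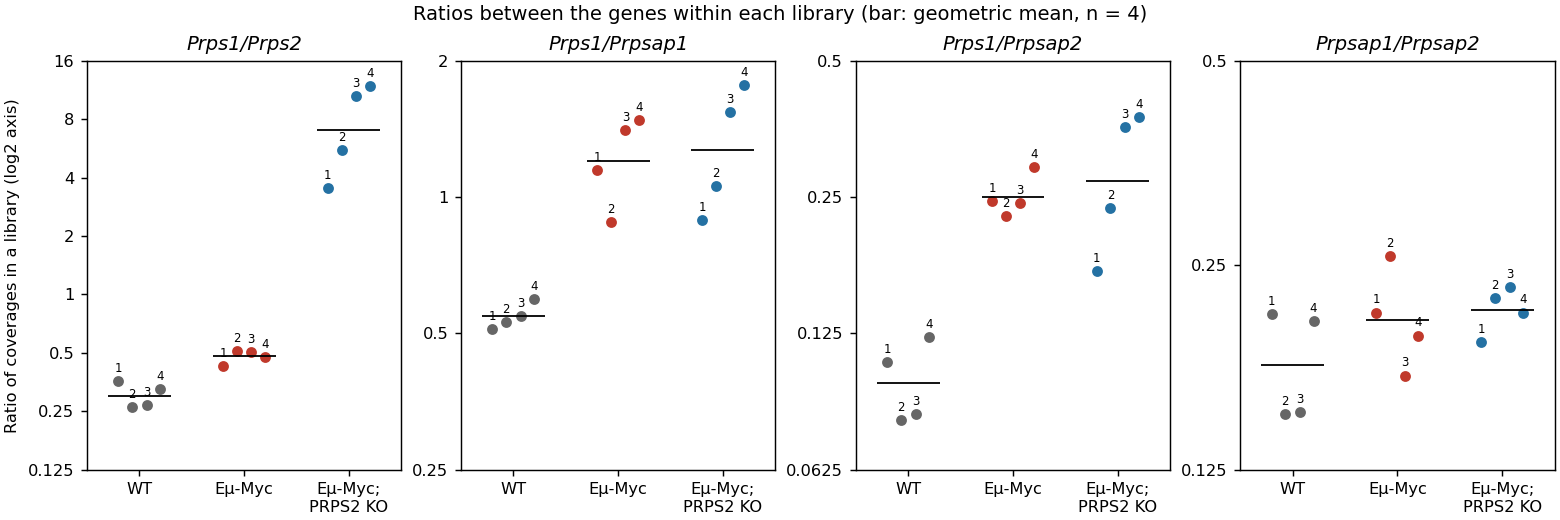
Ratios of coverage within each library (log2 vertical axes) for Prps1/Prps2, Prps1/Prpsap1, Prps1/Prpsap2 and Prpsap1/Prpsap2. Points carry the replicate number and bars show the geometric mean of 4 libraries. The first 3 ratios are higher in all Eμ-Myc libraries than in all WT libraries, while Prpsap1/Prpsap2 overlaps between the genotypes.

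Among the 8 libraries with the transgene, Prps1 was high where Myc was high. Scaled coverage of Myc was 1778, 1544, 2277 and 2019 in Eμ-Myc libraries 1 to 4 and 1073, 1631, 3051 and 3316 in the KO group. In WT it averaged 277 ± 51.9 (SD, n = 4). The log2 coverage of Prps1 correlated with that of Myc with Pearson's r 0.978 (exact permutation p 3.22e-04, adjusted p 9.66e-04) and Spearman's rho 0.952 (exact permutation p 0.00114, adjusted p 0.00342, n = 8). Without KO libraries 1 and 4, the farthest from the median of Myc, r was 0.936. The slope was 0.987 log2 units of Prps1 per log2 unit of Myc. These p values treat the 8 libraries as exchangeable, although they come from 2 genotypes and same-numbered libraries deviate together, and with 4 libraries a genotype no value within a genotype is given.

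Many genes followed Myc in these libraries: 25.6% of 12530 genes had an absolute r of at least 0.9, and 1.21% had an r at least as high as that of Prps1. The relation held for Prps1 without KO libraries 1 and 2 (r 0.962) and without libraries 3 and 4 (r 0.943). KO library 1, the lowest in both Prps1 and Myc, had T-cell and myeloid marker sums of 467 and 14760, and KO library 4, the highest in both, had 11.3 and 1251. The Eμ-Myc libraries had T-cell sums of 81.3 to 116, between those of KO libraries 1 and 2 and those of 3 and 4. The part of these marker genes in the relation was not tested.

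Prpsap2 followed Myc with a smaller slope of 0.327 (r 0.875, exact permutation p 0.00404, adjusted p 0.00606; rho 0.857, exact permutation p 0.0107, adjusted p 0.0160, n = 8). An r at least as high was found in 18.0% of all genes. Without KO libraries 1 and 4 its r was 0.785, and without libraries 1 and 2 it was 0.828 (exact permutation p 0.0597). Prpsap1 had r 0.720 (exact permutation p 0.0441) and rho 0.524 (exact permutation p 0.197, n = 8), and 33.3% of all genes had an r at least as high. Its r was 0.390 without KO libraries 1 and 4, 0.358 without libraries 1 and 2, and 0.466 without libraries 3 and 4. The p for Prpsap1 rose above 0.05 without Eμ-Myc library 1 or 4 or any 1 of the KO libraries, where r was 0.491 to 0.721. The highest r for Prpsap1, 0.952, came from leaving out 1 Eμ-Myc library.

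**Figure D4:**
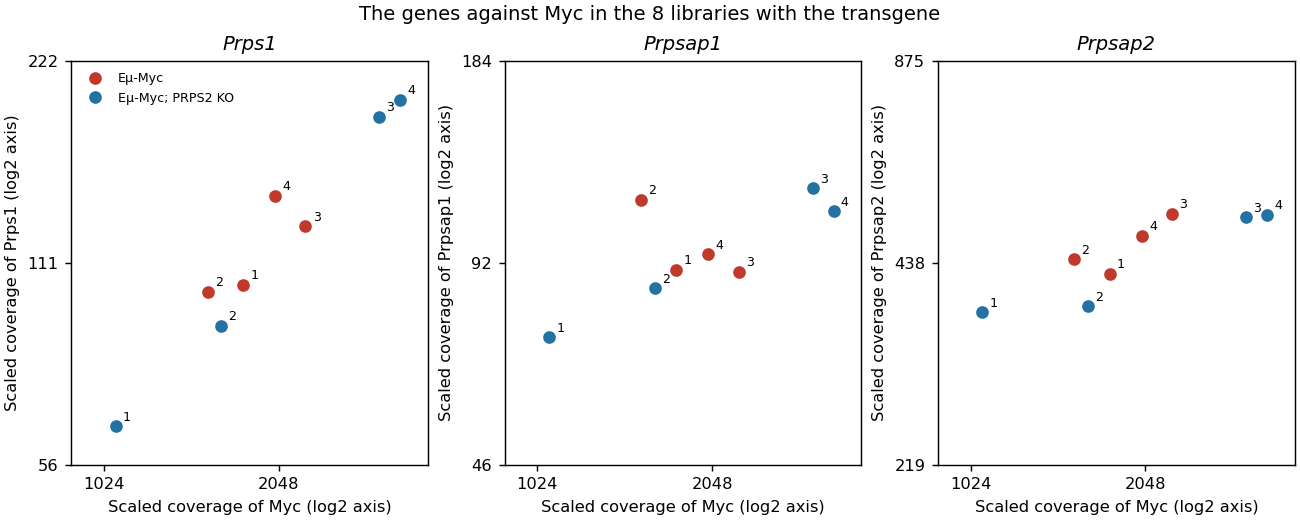
Scaled coverage of Prps1, Prpsap1 and Prpsap2 (log2 vertical axes, all spanning the same fold range) against that of Myc (log2 horizontal axis) in the 4 Eμ-Myc and 4 KO libraries, numbered by replicate. Prps1 follows Myc over the whole range (r 0.978), with KO library 1 lowest and library 4 highest, and the points of Prpsap1 and Prpsap2 rise less steeply.

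The genes whose pattern was most like that of each member were listed over all 12 libraries, or over WT and Eμ-Myc for Prps2. Among the nearest to Prps1 were Sae1, a subunit of the SUMO-activating enzyme (r 0.997), and Atic, which performs the last steps of purine synthesis (r 0.996). For Prps2, over 8 libraries, they were Rbm19 (r 0.994), D10Wsu102e (r 0.993) and Raver1 (r 0.992), and Prps1 itself stood at 0.958. Bcas2, a splicing factor component, was nearest to Prpsap1 (r 0.991), followed by Eif4e2 (r 0.990) and Pfdn2 (r 0.988). Tfam, a mitochondrial transcription factor, was nearest to Prpsap2 (r 0.973), followed by Fadd (r 0.964) and Mettl18 (r 0.957). Prpsap2 was less like the other members than Prps1 and Prpsap1 were like each other, with r of 0.721 and 0.645 against 0.899. These libraries share their genotype groups, so the values describe the groups as much as single libraries.

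The paralogs of Prps1 were read with caution. Prps1l3 lies at chr12:57230412-57239882 and its coding sequence is 96.9% identical to that of Prps1. They share a run of 164 bases, and 10.1% of all 50-base windows of the Prps1 transcript occur in Prps1l3. Part of their coverage may therefore be assigned to either gene. The levels, rank, shares and ratios of Prps1 given above rest on the assignment in the deposited values. Scaled coverage of Prps1l3 averaged 40.6 ± 4.63 for WT, 76.0 ± 11.0 for Eμ-Myc and 82.0 ± 29.2 for the KO group (mean ± SD of 4 libraries each). It rose in Eμ-Myc against WT by 0.89 log2 units (SE 0.13, limma adjusted p 4.826e-04). Against WT, the KO group was 0.94 higher (SE 0.26, limma adjusted p 0.0363), a call lost without any 1 WT library or without KO library 3 or 4 (adjusted p 0.0715 to 0.0971). It was 1.39 without KO libraries 1 and 2 (limma adjusted p 1.241e-04) and 0.49 without 3 and 4 (limma adjusted p 0.0941). Its KO libraries held 51.0, 63.4, 103 and 110.2, in the same order as Prps1. Prps1l1, known from testis, was at 2.04 or below in all libraries and was not tested.

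The genes that feed and use PRPP were described from a list of 10 sources of ribose 5-phosphate and 7 enzymes that consume PRPP. In Eμ-Myc against WT, where 29.0% of all genes were called higher and 26.6% lower, 4 users were called higher and 1 lower in limma, with a median log2 fold change of 0.96 against -0.04 for all genes. Of the 10 sources 4 were higher and 1 lower, a share of higher genes near the 29.0% of all genes, with a median of 0.16. Umps, which uses PRPP for pyrimidine synthesis, had a log2 fold change of 1.71 (limma adjusted p 6.524e-06). Ppat, which opens purine synthesis, had 1.55 (limma adjusted p 5.383e-05), close to the change of Prps1.

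Hprt, the purine salvage enzyme, rose by 1.23 (limma adjusted p 2.572e-05). The fourth user, Aprt, and the sources Pgls, Tkt, Rpia and Rbks, named after their values were seen, rose by 0.96, 1.16, 1.00, 0.79 and 0.71. Qprt, which makes nicotinate mononucleotide, fell by 1.69 (limma adjusted p 0.00876). Its scaled coverage was low, at 3.48 to 16.5 in WT and at 1.15 to 2.52 in Eμ-Myc, where it lay near the filter value of 1. The highest value was in WT library 4, the library with the highest T-cell marker sum. Pgm2 fell by 0.39 (limma adjusted p 0.0120).

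In the KO group against Eμ-Myc none of the 17 was called by limma, in a fit that called 0.00798% of all genes and so sets nothing apart in this list, and the medians were 0.00 for sources and -0.00 for users. Against WT, 2 sources (Pgls and Tkt) and 3 users (Umps, Ppat and Hprt) were called higher in the KO group and none lower, where 15.8% of all genes were called higher and 13.4% lower. The groups overlapped for Tkt. The whole comparison called 3705 genes, and 18 without WT library 2 and 15 without WT library 3; the calls of these 5 genes were not checked one by one. Umps was at 1.71 (limma adjusted p 0.0194), Ppat at 1.66 (0.0277) and Hprt at 1.12 (0.0376). Ppat had 34.8, 53.6, 123 and 119 in KO libraries 1 to 4, so that, as with Prps1, libraries 1 and 2 lay below 3 and 4.

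**Figure D5:**
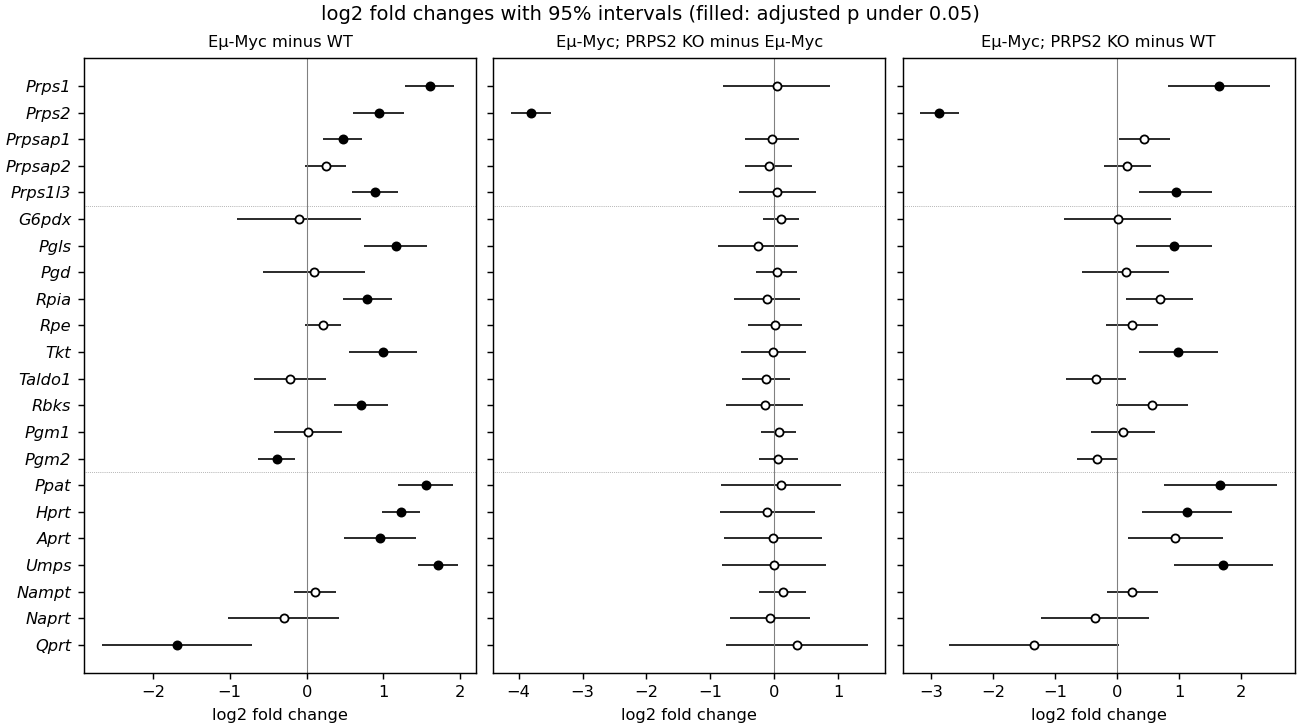
log2 fold changes with 95% intervals (horizontal axes) of the PRPP synthetase genes, Prps1l3, the sources of ribose 5-phosphate and the users of PRPP, from top to bottom, in the 3 comparisons; filled points have a limma adjusted p under 0.05. Prps1, Umps and Ppat have changes of 1.55 to 1.71 in Eμ-Myc against WT, and Prps2 is the one filled point in the KO group against Eμ-Myc.

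The neighbourhood of Prps2 was also looked at. The 3 nearest tested protein-coding genes on each side of Prps2 had log2 fold changes of -0.58 to 0.12 in the KO group against Eμ-Myc, and none was called, as is the case for all genes but 1 in this fit (0.00798% called). Tlr7, the closest on the side of the Prps2 transcript's end, lies 15.8 kb away and had -0.58 (limma adjusted p 1.00). None of the 6 neighbours of Prps1, Prpsap1 or Prpsap2 was called in that comparison either. In Eμ-Myc against WT, Tsc22d3, the next tested gene after Prps1, fell by 1.31 (limma adjusted p 0.00151), against the rise of Prps1. Over that comparison, which called 55.6% of all genes, 2 of the 6 neighbours were higher and 3 lower for Prps2 and likewise for Prpsap2, with 0 higher and 2 lower for Prps1 and 0 higher and 1 lower for Prpsap1.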

How the data were processed

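Splenic B lymphocytes of 12 mice gave directional libraries of polyadenylated RNA, per the labels' protocols. The authors deposited 1 file per library with coverage per gene, a signal with 1 decimal, of which 91.6% of the values above 0 are not whole. The submitters' processing notes name mm10, DESeq and R 4.3.3 with no role, and the aligner, counting step and annotation are not given in the sources used here. Read depth is therefore not known, and total coverage was between 1277305.5 and 1885768.9 per library.

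From these values, libraries were scaled by unweighted trimmed means of log ratios (30% of ratios and 5% of means trimmed). Genes that reached 1 in 4 or more of the 8 libraries of a comparison were tested with limma 3.58.1 in R 4.3.3 (trended, robust empirical Bayes) on log2(scaled coverage + 0.5), two-sided, with Benjamini-Hochberg adjustment over all genes, called under 0.05. Fold changes are on that scale and understate changes of low genes. Ratios used unscaled coverage and exact permutation tests over 70 arrangements. Python 3.11.15, scipy 1.17.1 and matplotlib 3.10.9 were used for these and for the figures, and Biopython 1.88 for sequence identity.

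The members, lists, tests and alternatives were chosen with earlier results of these data known. Named genes were the members, their paralogs, Myc, the called genes of the PRPP list with the 3 largest changes each way, the 3 genes of mean coverage 8 or more with the highest r to each member (no Gm or Rik symbols), and neighbours called in the KO group against Eμ-Myc, of which there were none. Genes named beyond this (Tlr7, Tsc22d3 and those marked in the text) were chosen after their values were seen. Alternatives were scaling by total coverage or by the median of ratios, no filter or at least 10 in every library, pseudocounts of 0.1 and 2, all 12 libraries in one fit, library quality weights, a replicate block, and leaving out libraries. The labels number replicates 1 to 4 in each group. Same-numbered libraries of the KO group and Eμ-Myc deviated together across genes (r 0.641, 0.188, 0.243 and 0.598), so these numbers were treated as pairs in the block, a pairing that comes from the values alone. No protein sequences were used here, and 1 gene of the B-cell list and 1 gene near Prps1 are not reported here.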

Additional observations from a re-analysis of the deposited data

Results flagged for a closer look

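The log2 ratio of Prps2 to Prpsap2 in WT had 1 library far from the others. The ratio was 0.302, 0.307 and 0.309 in libraries 1 to 3 and 0.380 in library 4, and this gap was 0.903 of the group's range, above the critical value of 0.829 for 4 samples. It was the 1 such case among 36 groups of values examined, where chance gives about 1 in 20. WT library 4 also had the highest T-cell marker sum, 2115, and its part in the ratio was not tested.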

How the results depend on the processing

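In Eμ-Myc against WT, Prps1, Prps2 and Prpsap1 kept their direction and their call under all 17 alternatives. Their log2 fold changes were 1.46 to 1.78, 0.79 to 1.04 and 0.32 to 0.51. Prpsap2 passed with library quality weights at 0.26, in a fit that called 9031 of 12704 genes. Total-coverage scaling moved the median of all genes there from -0.04 to -0.19 and the share of higher among called genes from 52.1% to 42%. The cause of the changes below was not tested. For the KO group against Eμ-Myc the count of called genes was 1, and 7565 with quality weights, 3540 without KO libraries 1 and 2 and 1134 without 3 and 4. Quality weights, which gave libraries 1 and 2 weights of 0.0837 and 0.126, put Prps1 at 0.59, Prpsap1 at 0.29, Prps1l3 at 0.39 and Myc at 0.59, all 4 called, and Prpsap2 at 0.053. Total-coverage scaling put Prpsap1 at 0.0018. Without libraries 1 and 2 the values were 0.70 for Prps1, 0.50 for Prps1l3 and 0.75 for Myc, all 3 called, and 0.24 for Prpsap1 and 0.15 for Prpsap2, not called. Without 3 and 4 they were -0.62 for Prps1, -0.40 for Prps1l3 and -0.51 for Myc, none called. Leaving out single libraries gave -0.20 to 0.34 for Prps1, -0.15 to 0.10 for Prpsap1, -0.12 to 0.25 for Prps1l3 and -0.11 to 0.43 for Myc. In the KO group against WT the count of 3705 became 5958 with all libraries in one fit, 10520 with quality weights, 8641 without KO libraries 1 and 2, 1385 without 3 and 4, and 15 to 6632 without single libraries. There Prps1 was 1.40 to 1.94 and Prpsap1 0.32 to 0.56 without single libraries. Prpsap1 was 0.43 in one fit, 0.72 with weights and 0.71 without libraries 1 and 2, called in all 3. Prpsap2 was 0.30 with weights and 0.39 without libraries 1 and 2, both called, and -0.068 without 3 and 4.

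With the replicate block the count against WT in the KO group was 1462, and no call of the 4 genes changed; the same-numbered libraries there (r -0.412 to 0.390) and in Eμ-Myc and WT (-0.0967 to 0.249) share only a number. The paired sign-flip test of ratios cannot go below p 0.125, which it gave for log2 differences of 0.67, 1.14, 1.37 and 0.69 (Prps1/Prps2, Prps1/Prpsap1, Prps1/Prpsap2, Prps2/Prpsap2; Eμ-Myc against WT) and 1.22 and 1.49 (Prps1/Prpsap1, Prps1/Prpsap2; KO group against WT). Without single libraries Prps2/Prpsap1 was 0.35 to 0.65 in the first comparison. In the KO group against Eμ-Myc, Prps1/Prpsap1 was -0.086 to 0.24, Prps1/Prpsap2 -0.035 to 0.34 and Prpsap1/Prpsap2 -0.044 to 0.15. Against WT the first pair was 1.06 to 1.39 and 1.33 to 1.71. The r of Prpsap1 with Myc was 0.699 and 0.497 with median-of-ratios and total-coverage scaling, 0.358 without KO libraries 1 and 2, 0.466 without 3 and 4, and 0.491 to 0.952 without single libraries. That of Prpsap2 was 0.828 without 1 and 2. Read depth is unknown, so precision comes from 4 libraries a group.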

Other observations

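The coverage of Prps1 was also set against that of Myc in each library, a quantity chosen after its values were seen. It was 13.0%, 15.0%, 14.7% and 13.1% of the Myc coverage in WT libraries 1 to 4. In Eμ-Myc it was 5.80%, 6.52%, 5.54% and 6.93%, and in the KO group 5.91%, 5.50%, 6.02% and 5.88%. The KO libraries, which differ 3-fold in Prps1 itself, were close to each other on this scale (5.83% ± 0.228, SD, n = 4), and within the range of Eμ-Myc apart from library 2, which was slightly below it. Prpsap2 did not keep such a proportion, at 34.4%, 23.2%, 16.8% and 15.6% of Myc in KO libraries 1 to 4. Prpsap1 was at 6.65%, 5.18%, 3.90% and 3.32% in the same libraries.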
